A study of Homo sapiens with 6 samples.

Results

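The AGR2 and SPDEF group of secretory epithelium genes comprises 10 symbols, AGR2, AGR3, TFF1, TFF2, TFF3, SPDEF, FOXA1, FOXA2, XBP1 and CREB3L1. All 10 were named by the platform annotation, among 14884 genes measured on 6 arrays. A gene is called measured where a probe set carries its symbol, and 37519 of 53617 probe sets carried none. Where a symbol has several probe sets the brightest on average is chosen by the rule, but each symbol had 1 probe set, so this excluded none. The members were chosen by known role and with earlier results of these arrays in view, in which AGR2 already stood among the largest rises. Its call is therefore a description, and the levels of the others are read beside it without a test over the list.

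The 3D group consisted of SKOV3 cells kept for 11 days on low-attachment 96-well plates in McCoy's 5A medium with 15% FBS and 0.015% (w/v) FP001 (n = 3). In the 2D group, SKOV3 cells were kept for the same 11 days on attachment plates in the same medium and serum, with Milli-Q water in place of FP001 per the labels' protocol (n = 3). SKOV3 is an established human ovarian carcinoma line, and FP001 is a medium additive known here by its code name alone. The effects of plate and of FP001 cannot be told apart, since both differ between the groups. The labels do not say that arrays of a group came from separate cultures, so the p-values cover the spread between these arrays alone, which may be technical.

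AGR2 and AGR3 are protein disulfide isomerase family members of the endoplasmic reticulum (ER), and in the mouse gut Agr2 is needed for mucin production. The trefoil factors TFF1, TFF2 and TFF3 are small disulfide-bonded peptides that epithelia secrete together with mucins. SPDEF is an ETS transcription factor that drives goblet cell differentiation in the mouse, and FOXA1 and FOXA2 are forkhead factors that open chromatin in endoderm-derived and hormone-responsive epithelia. XBP1 and CREB3L1 are transcription factors tied to the ER. XBP1 mRNA is spliced by IRE1 at the ER membrane, whereas CREB3L1 resides in that membrane and is released by proteases after transport to the Golgi, and both enlarge the capacity for secretion in professional secretory cells.

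The 4 members that rose were picked by their direction, and shared control of them was not tested. Their upstream sequences are shown as a description. They are the 250 bases before the start site in the RefSeq promoter table (build GRCh38.p14), which matched 6 of the 10 members, AGR2, AGR3, SPDEF, FOXA1, XBP1 and CREB3L1. AGR2 lay at chr7:16805000-16805249, AGR3 at chr7:16881984-16882233, SPDEF at chr6:34556330-34556579 and FOXA1 at chr14:37595250-37595499, each on the minus strand and printed 5′ to 3′. Capitals mark the forkhead motif GTAAANA in SPDEF and the TATA box TATAAA in AGR3.
AGR2: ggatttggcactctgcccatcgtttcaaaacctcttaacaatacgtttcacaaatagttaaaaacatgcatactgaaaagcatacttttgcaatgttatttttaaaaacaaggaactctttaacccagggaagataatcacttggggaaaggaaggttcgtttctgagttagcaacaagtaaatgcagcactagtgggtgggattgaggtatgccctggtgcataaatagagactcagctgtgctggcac
SPDEF: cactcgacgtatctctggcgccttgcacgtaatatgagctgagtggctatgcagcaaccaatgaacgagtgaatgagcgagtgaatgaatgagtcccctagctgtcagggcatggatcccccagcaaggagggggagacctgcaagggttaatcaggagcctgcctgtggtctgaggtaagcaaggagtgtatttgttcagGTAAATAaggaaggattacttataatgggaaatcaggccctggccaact
AGR3: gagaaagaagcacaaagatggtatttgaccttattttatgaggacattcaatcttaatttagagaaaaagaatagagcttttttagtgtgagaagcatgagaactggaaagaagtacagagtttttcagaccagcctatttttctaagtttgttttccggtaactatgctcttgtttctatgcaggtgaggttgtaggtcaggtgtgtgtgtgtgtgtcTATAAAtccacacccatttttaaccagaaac
FOXA1: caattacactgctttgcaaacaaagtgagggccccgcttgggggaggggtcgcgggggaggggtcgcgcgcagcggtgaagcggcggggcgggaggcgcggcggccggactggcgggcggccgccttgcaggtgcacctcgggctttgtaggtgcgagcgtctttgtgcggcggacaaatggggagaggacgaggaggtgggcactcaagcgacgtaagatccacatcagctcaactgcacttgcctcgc
Motifs were searched on both strands of the same 250 bases. GTAAANA occurred once among the members, as GTAAATA from 49 to 43 bases before the SPDEF start, and in 9.58% of 34943 promoter windows. TATAAA occurred from 31 to 26 bases before the AGR3 start and in 10.8% of the windows. The ETS motifs GGAAGT and CGGATG were found in none of the members' windows, against 19.5% and 5.27% of all windows. The ER stress response element, CCAAT and CCACG with 9 bases between them, was found in XBP1, from 52 to 34 bases before the start (chr22:28800570-28800819, minus strand) as CCAATCGCGGAGGGCCACG, and in 0.0744% of all windows. XBP1 had a second window in the table, which held none of these motifs, and no match overlapped another. A match is a description of the letters and not of a bound site.

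Values are log2 RMA values, a background-corrected and quantile-normalised probe set summary, and changes are 3D minus 2D on that log2 scale. RMA compresses the changes of dim probe sets, so the mean lower quartile of the arrays, 2.93, is used as a mark of low signal, and levels of different genes are not set against each other. The groups lay apart on the first principal component (59.1% of the variance). 3D replicate 1 stood apart from the other 3D arrays on the next (18.4%), and the changes of the members without it are therefore given. The 8 measured of 10 fixed carcinoma epithelium markers averaged 7.78 to 8.02 in the 3D arrays and 7.32 to 7.39 in the 2D arrays, and none lay below the lower quartile on average. KRT19 rose by 2.70 and EPCAM by 1.76, KRT7 fell by 0.93 and 5 did not pass (limma), with 4 risen and 1 fallen without 3D replicate 1. Of all 14884 genes, 778 rose and 710 fell, and 1096 rose and 803 fell without that array. The part of these markers in the changes of the members was not tested. In cultures measured in bulk, more cells of a type and more RNA per cell cannot be told apart.

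Of the 10 members, 4 rose (AGR2, SPDEF, AGR3 and FOXA1), 1 fell (CREB3L1) and 5 did not pass at an adjusted p under 0.05 (limma, Benjamini-Hochberg over all genes). Over all 14884 genes 5.23% rose and 4.77% fell. The median change was 0.33 for the members and -0.01 over all genes. The arrays of the groups did not overlap for 6 members, with 3D above 2D in 5 and below in 1, where 13.8% and 15.3% of all genes did so.

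**Figure D1:**
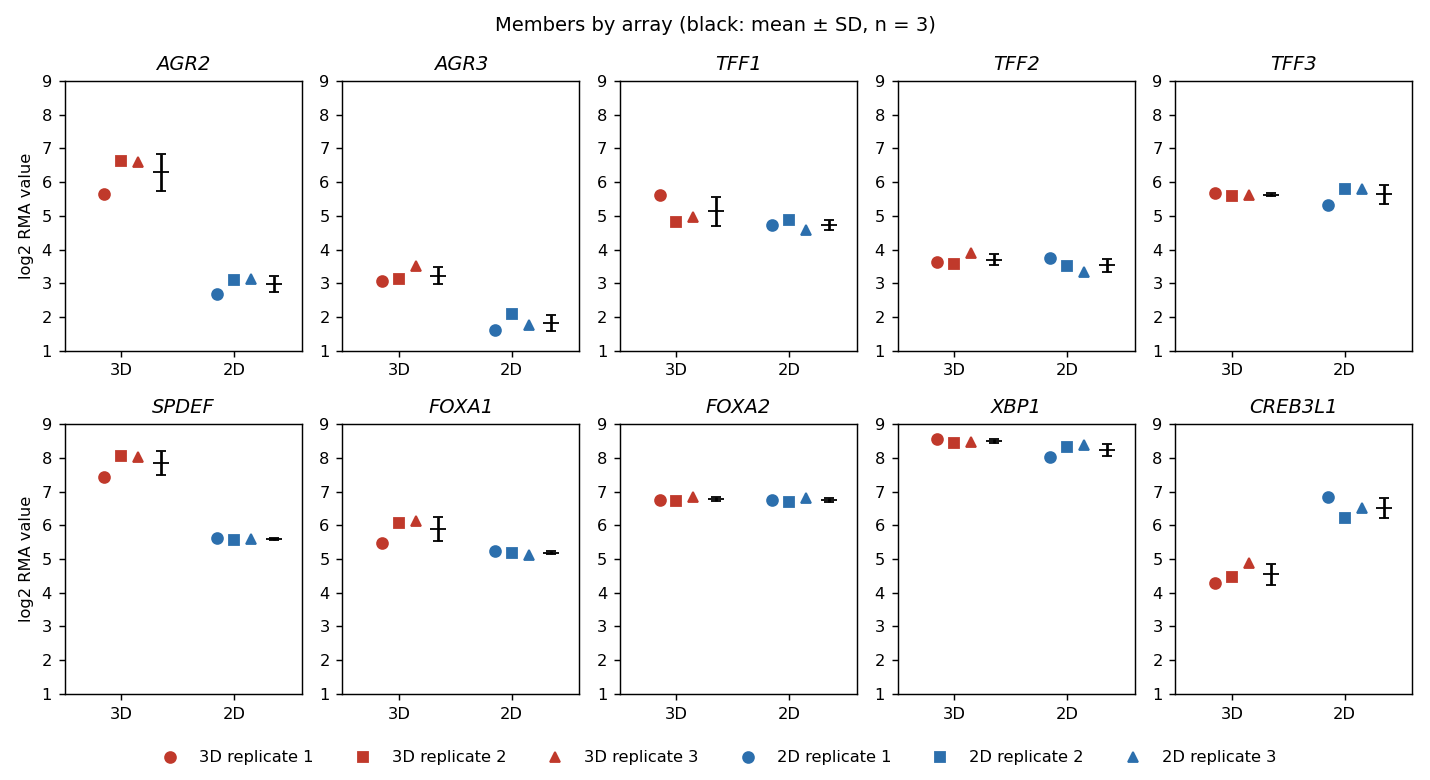
Each panel plots the log2 RMA value of 1 member (vertical axis) in the 3D arrays (red, left) and the 2D arrays (blue, right), with the replicate number as the marker shape and the mean ± SD (n = 3) in black. AGR2 (5.64 to 6.64 in 3D, 2.69 to 3.12 in 2D) and SPDEF (7.43 to 8.05 in 3D, 5.58 to 5.64 in 2D) show the widest gaps above 2D, and CREB3L1 (4.28 to 4.89 in 3D, 6.23 to 6.83 in 2D) is the member that lies below.

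AGR2 read 5.64, 6.64 and 6.59 in 3D replicates 1, 2 and 3, against 2.69, 3.09 and 3.12 in 2D replicates 1, 2 and 3. All 3D arrays lay above all 2D arrays, and 3D replicate 1 was the lowest of its group, 0.97 below the mean of the other 3D arrays. The change was 3.32 ± 0.27 (SE, n = 3 per group; 95% interval 2.70 to 3.94; adjusted p = 0.000387, limma), the rise of rank 8 among all genes. The 2D values sat around the lower quartile of the arrays, with 2D replicate 1 below it, so the fold is measured against a dim level. Without 3D replicate 1 the change was 3.64.

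AGR3, the neighbouring paralog of AGR2, read 3.06, 3.11 and 3.50 in 3D replicates 1, 2 and 3, against 1.61, 2.09 and 1.77 in 2D replicates 1, 2 and 3. The groups did not overlap, all 2D arrays lay below the lower quartile of 2.93 and all 3D arrays lay a little above it. AGR3 rose by 1.40 ± 0.17 on the log2 scale (SE, n = 3; adjusted p = 0.00209, limma), and by 1.48 without 3D replicate 1. With 2D at such low signal the size of the change is uncertain, so no fold is given, and with dim genes left out AGR3 was not tested.

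The other genes around AGR2 and AGR3 on chromosome 7 were read in the same way, in the gene order of RefSeq and chosen after the values of the paralogs were known. Of the 3 protein-coding neighbours before AGR2, BZW2 rose by 0.65 (adjusted p = 0.011, limma), while TSPAN13 gave 0.45 (adjusted p = 0.174) and ANKMY2 0.24 (adjusted p = 0.321). Of the 3 after AGR3, AHR, encoding the aryl hydrocarbon receptor, gave 0.20, SNX13 0.11 and PRPS1L1 -0.27, with adjusted p from 0.298 to 0.613. Of the 6 neighbours, 1 thus passed.

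The trefoil factors did not pass. TFF1 read 5.62, 4.82 and 4.96 in 3D replicates 1, 2 and 3, against 4.72, 4.89 and 4.59 in 2D replicates 1, 2 and 3. A single array, 3D replicate 1, was high, 0.73 above the mean of the other 3D arrays, and the groups overlapped. The change was 0.40 ± 0.21 (SE, n = 3; 95% interval -0.08 to 0.88; adjusted p = 0.301, limma), and 0.16 without 3D replicate 1. In that array TFF1 was at its highest among the 3D arrays while AGR2, SPDEF and FOXA1 were at their lowest.

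TFF2 read 3.65, 3.56 and 3.89 in 3D replicates 1, 2 and 3, against 3.74, 3.52 and 3.34 in 2D replicates 1, 2 and 3, a change of 0.16 with a 95% interval of -0.15 to 0.48 (adjusted p = 0.556, limma). TFF3 read 5.68, 5.59 and 5.61 in 3D replicates 1, 2 and 3, against 5.31, 5.81 and 5.79 in 2D replicates 1, 2 and 3. The 3D arrays of TFF3 fell within the 2D range, and its change was -0.01, with a 95% interval of -0.35 to 0.32 (adjusted p = 0.975, limma). Leaving out 3D replicate 1 gave 0.19 for TFF2 and -0.04 for TFF3. The intervals of TFF2 and TFF3 leave out a change of 0.5 in either direction, whereas that of TFF1 does not leave out a rise of that size. The 3 trefoil genes are neighbours on chromosome 21, and the protein-coding genes directly beside them, ABCG1 and TMPRSS3, had no named probe set. Further out, UMODL1 (0.34, adjusted p = 0.151, limma) and ZBTB21 (-0.11, adjusted p = 0.691) on the TFF3 side did not pass either. Nor did UBASH3A (0.03, adjusted p = 0.953) and RSPH1 (0.27, adjusted p = 0.161) on the TFF1 side.

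SPDEF read 7.43, 8.05 and 8.04 in 3D replicates 1, 2 and 3, against 5.64, 5.58 and 5.60 in 2D replicates 1, 2 and 3. The 2D arrays agreed within an SD of 0.03, and all 3D arrays lay well above them, with 3D replicate 1 the lowest. SPDEF rose by 2.24 ± 0.17 (SE, n = 3; 95% interval 1.84 to 2.63; adjusted p = 0.000299, limma), which is 4.71-fold and the rise of rank 30. Its 2D arrays, unlike those of AGR2, lay above the mean array median of 4.33. Without 3D replicate 1 the change was 2.44.

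FOXA1 read 5.49, 6.06 and 6.13 in 3D replicates 1, 2 and 3, against 5.23, 5.19 and 5.13 in 2D replicates 1, 2 and 3. The groups did not overlap, but 3D replicate 1 lay closer to the 2D arrays than to the other 3D arrays. FOXA1 rose by 0.71 ± 0.17 (SE, n = 3; adjusted p = 0.0401, limma), or 1.63-fold, and by 0.91 (adjusted p = 0.00176) without 3D replicate 1. Its call was lost when any other array was left out, 2D replicate 1, 2 or 3 or 3D replicate 2 or 3, with adjusted p from 0.103 to 0.138, and also when all 53617 probe sets were tested together (adjusted p = 0.135).

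FOXA2 read 6.75, 6.73 and 6.85 in 3D replicates 1, 2 and 3, against 6.74, 6.69 and 6.80 in 2D replicates 1, 2 and 3. The groups overlapped throughout. Its change was 0.04 with a 95% interval of -0.17 to 0.25 (adjusted p = 0.87, limma), so the interval of FOXA2 lay below that of FOXA1, which ran from 0.31 to 1.10. Leaving out 3D replicate 1 gave 0.05 for FOXA2. FOXA3, the other forkhead factor of this subfamily and a gene of the luminal list, gave -0.21 (adjusted p = 0.318).

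XBP1 read 8.56, 8.46 and 8.49 in 3D replicates 1, 2 and 3, against 8.03, 8.31 and 8.38 in 2D replicates 1, 2 and 3. All 3D arrays lay above all 2D arrays, by 0.08 at the closest, and 2D replicate 1 was the lowest array. The change of 0.26 ± 0.12 (SE, n = 3; 95% interval -0.01 to 0.53) did not pass (adjusted p = 0.229, limma). Its change without 3D replicate 1 was 0.23. The spliced form of XBP1 was not analysed here.

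CREB3L1 read 4.28, 4.47 and 4.89 in 3D replicates 1, 2 and 3, against 6.83, 6.23 and 6.50 in 2D replicates 1, 2 and 3. All 3D arrays lay below all 2D arrays, with 3D replicate 1 the lowest. CREB3L1 fell by 1.97 on the log2 scale, ± 0.20 (SE, n = 3; 95% interval -2.44 to -1.51; adjusted p = 0.000945, limma). The gene was 3.93-fold lower in 3D, the fall of rank 28 among all genes, and its change without 3D replicate 1 was -1.84.

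**Figure D2:**
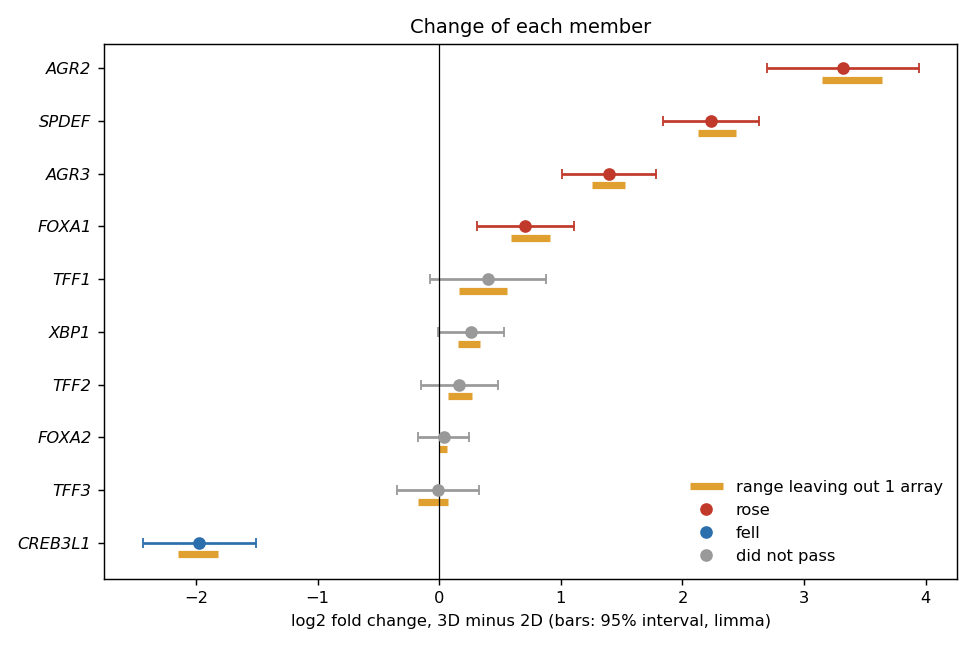
Points give the log2 fold change (3D minus 2D, horizontal axis) of each member with its 95% interval from limma (n = 3 per group), coloured by whether it rose, fell or did not pass. Orange bars give the range of the change when single arrays are left out, from 3.15 to 3.64 for AGR2 and from -0.17 to 0.07 for TFF3, the member whose range crosses 0.

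Among the members SPDEF had the profile most like that of AGR2. Likeness was measured as the Euclidean distance between log2 profiles over the 6 arrays, each centred on its own mean, and SPDEF ranked 23 among all genes at a distance of 1.41 (Pearson r = 0.995 over 6 arrays). AGR3 ranked 127 (distance 2.46, r = 0.973) and FOXA1 403 (distance 3.24, r = 0.935), whereas CREB3L1 ran the opposite way (r = -0.937). These correlations describe arrays that form separate groups, and most of each comes from the gap between 3D and 2D.

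The 5 genes nearest to AGR2 were CPM, SUSD2, GREB1, LRRC31 and SYTL5. The profiles were not scaled, so this distance favours genes whose change is close in size to that of AGR2. Pearson r with AGR2 over the 6 arrays ran from 0.975 (SYTL5) to 0.991 (GREB1) for these genes, below the 0.995 of SPDEF. CPM, a membrane carboxypeptidase gene, averaged 10.40 ± 0.14 in 3D and 6.97 ± 0.10 in 2D (SD, n = 3), at a distance of 0.67 from AGR2. SUSD2, a membrane protein gene, averaged 10.21 ± 0.22 in 3D and 6.90 ± 0.14 in 2D, at a distance of 0.70. The oestrogen-responsive gene GREB1 followed at 0.78, with 7.67 ± 0.23 in 3D and 4.77 ± 0.09 in 2D, then LRRC31 at 0.94 and the vesicle traffic gene SYTL5 at 0.97. The 5 genes were picked by likeness to AGR2 over these same arrays, which favours a shared lowest array. In each of them 3D replicate 1 was the lowest 3D array, as it was in AGR2, SPDEF, AGR3 and FOXA1. Among all 778 genes that rose, it was the lowest 3D array in 519 (66.7%), against 42.0% of the genes that did not pass. Among the 710 genes that fell it was the highest 3D array in 314 (44.2%), near the 39.2% of the genes that did not pass.

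**Figure D3:**
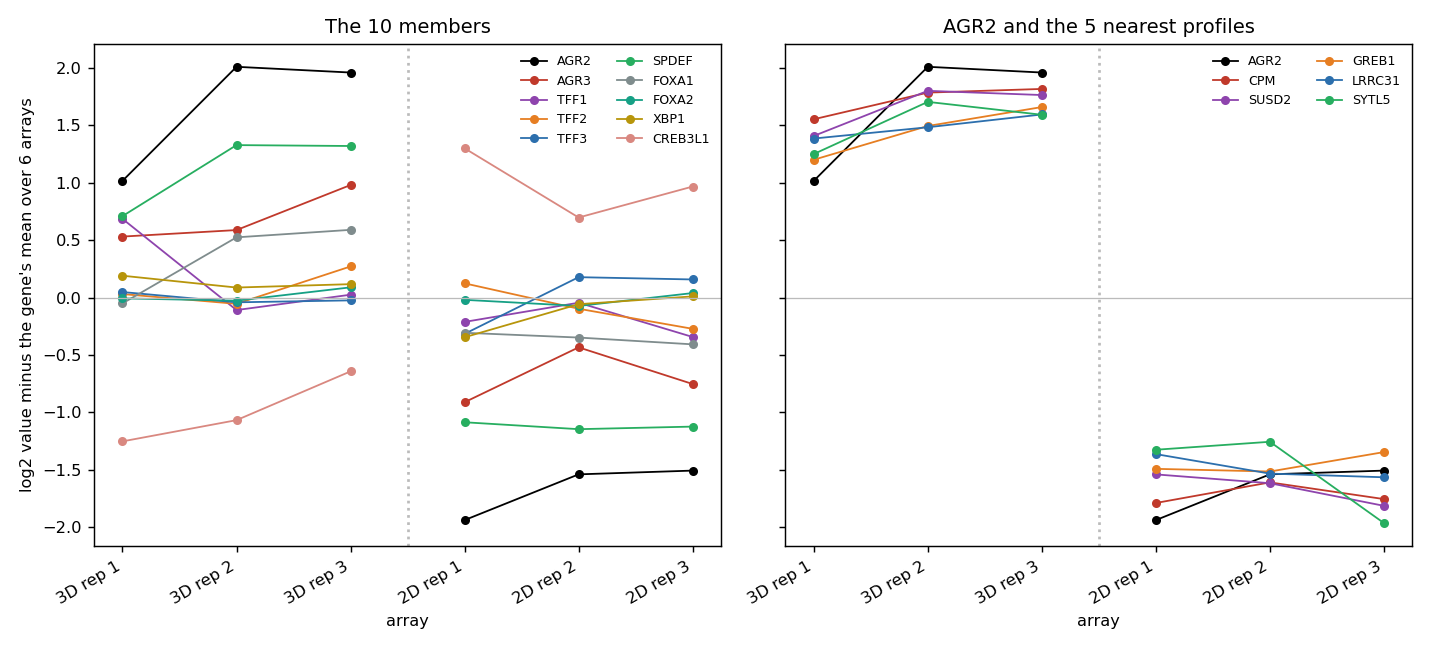
Both panels plot the log2 value minus the gene's own mean over 6 arrays (vertical axis) for each array (horizontal axis, 3D left and 2D right), for the 10 members on the left and for AGR2 with its 5 nearest genes on the right; lines join arrays of a group for legibility. AGR2, SPDEF, AGR3 and FOXA1 dip in 3D replicate 1, where TFF1 peaks, and CREB3L1 runs the opposite way between the groups.

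The genes around the members were read from lists set by known role. Each count is read against the 5.23% of all genes that rose and the 4.77% that fell. Without 3D replicate 1, 1096 of all genes rose and 803 fell. On these lists the counts without that array are given where they differed from the main fit, and were otherwise the same. Of 20 listed protein disulfide isomerases and their oxidases other than AGR2 and AGR3, 10 were measured, 2 rose, 0 fell and 8 did not pass, with a median change of 0.02 against -0.01 over all genes (at an unadjusted p under 0.05 the list held 3 higher and 1 lower member, limma). The risers were TMX4, a transmembrane thioredoxin gene (0.54 ± 0.11 SE, n = 3; adjusted p = 0.0192, limma), and ERP44, which retains client proteins in the early secretory pathway (0.40 ± 0.09; adjusted p = 0.0314). ERO1A, the oxidase that recharges these enzymes, gave 0.01 (adjusted p = 0.974). TMX4 lost its call without 2D replicate 1 or 3 or 3D replicate 2 or 3 (adjusted p up to 0.0802) and ERP44 when any array but 3D replicate 1 was left out (adjusted p up to 0.13).

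Of 22 listed unfolded protein response genes and XBP1 targets, 13 were measured, of which 6 rose, 0 fell and 7 did not pass, where 5.23% of all genes rose. The list's median was 0.18. The ER-resident trophic factor gene MANF rose by 0.62 ± 0.09 (SE, n = 3; adjusted p = 0.00635, limma), the ER co-chaperone gene SDF2L1 by 0.52, the calcium-binding chaperone gene CALR by 0.51 and the chaperone gene HYOU1 by 0.50. WFS1 (0.49) and CRELD2 (0.38), named after their values were seen, also rose. All 6 rises were under 2-fold. DDIT3, encoding the stress factor CHOP, read 6.35, 5.77 and 5.20 in 3D replicates 1, 2 and 3, against 6.60, 6.67 and 7.06 in 2D replicates 1, 2 and 3. Its 3D arrays lay below its 2D arrays, but the difference between a mean of 5.77 ± 0.58 in 3D and 6.78 ± 0.25 in 2D (SD, n = 3) did not pass (adjusted p = 0.0634, limma). MANF kept its call in every fit without 1 array, CRELD2 kept it in none of them (adjusted p up to 0.133) nor after a repeated quantile normalization (adjusted p = 0.0521), and the other 4 risers lost it without 3D replicate 2 or 3 and without at least a pair of single 2D arrays (SDF2L1 2D replicate 1, 2 or 3, CALR 2D replicate 1 or 3, HYOU1 2D replicate 1 or 2, WFS1 2D replicate 2 or 3), with adjusted p up to 0.108. Without 3D replicate 1, 5 rose and 1 fell.

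Of 12 ER stress sensors and CREB3 family genes, 10 were measured, 1 rose, 0 fell and 9 did not pass (median 0.07). The riser was ATF6B, a membrane-bound relative of ATF6 (0.42 ± 0.10 SE, n = 3; adjusted p = 0.0417, limma), whose call was lost when any array but 3D replicate 1 was left out (adjusted p up to 0.154) and with the arrays centred on their medians (adjusted p = 0.0581). CREB3L2, the closest relative of CREB3L1, gave -0.26 (adjusted p = 0.225) and CREB3L4 0.23. ERN1, which encodes the IRE1 nuclease that splices XBP1 mRNA, gave -0.15 (adjusted p = 0.724), and ATF4 gave -0.55 (adjusted p = 0.193). Without 3D replicate 1, 1 rose and 1 fell. The gene that fell was not followed singly, and ATF4 had the lowest change of the list in the main fit.

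Of 30 listed ER translocation and cargo export genes, 16 were measured, 3 rose, 0 fell and 13 did not pass (median 0.15). The coat protein gene SEC23B rose by 0.64 ± 0.12 (SE, n = 3; adjusted p = 0.0151, limma), and the signal peptidase subunit genes SEC11C and SPCS3 by 0.49 and 0.48. SEC61A1, the pore of the translocon, gave 0.19 and did not pass. The arrays of the groups lay apart for 8 of the 16 genes, each time with 3D above, where 13.8% of all genes had 3D above. SEC23B lost its call without 2D replicate 1 or 3 or 3D replicate 2 or 3, SEC11C without 2D replicate 1 or 2 or 3D replicate 2 or 3 and SPCS3 without 2D replicate 1, 2 or 3 or 3D replicate 2 or 3, with adjusted p up to 0.0976.

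None of 15 listed mucin genes was analysed here. Of 24 listed mucin O-glycosylation genes, 11 were measured, 3 rose, 0 fell and 8 did not pass (median 0.22), where 5.23% of all genes rose and 4.77% fell. GALNT3 and GALNT12, which start O-glycan chains, rose by 1.07 ± 0.14 and 1.03 ± 0.26 (SE, n = 3; adjusted p = 0.00302 and 0.0486, limma), and the fucosyltransferase gene FUT2, which makes the secretor H antigen, rose by 0.71 ± 0.11 (adjusted p = 0.00626). GALNT12 did not pass when any array but 3D replicate 1 was left out (adjusted p up to 0.154) or with the arrays centred on their medians (adjusted p = 0.0527).

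Of 27 listed secretory and mucosal products, 14 were measured, 3 rose, 2 fell and 9 did not pass (median 0.02). The antiprotease gene SLPI averaged 13.15 ± 0.05 in 3D and 11.86 ± 0.17 in 2D (SD, n = 3), a rise of 1.29 (adjusted p = 0.000483, limma). The tetraspanin gene TSPAN1 rose by 0.88 and WFDC2, which encodes the ovarian tumour marker HE4, by 0.76 ± 0.18 (SE; adjusted p = 0.0368). The siderophore-binding lipocalin gene LCN2 fell by 0.90 and the clusterin gene CLU, named after its value was seen, by 0.73. SLPI and TSPAN1 kept their calls without single arrays. WFDC2 and LCN2 lost theirs without 2D replicate 2 or 3 or 3D replicate 2 or 3, and CLU without 2D replicate 1 or 3D replicate 2 or 3 (adjusted p up to 0.126).

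Of 24 listed luminal regulators and oestrogen receptor partners, 16 were measured, 7 rose, 1 fell and 8 did not pass (median 0.38), where 5.23% of all genes rose and 4.77% fell. Some of these rises were known when the list was drawn up, so the count is no independent evidence of direction. GREB1 rose by 2.90, the progesterone receptor gene PGR by 1.81 ± 0.13 (SE, n = 3; adjusted p = 0.000252, limma), the carbonic anhydrase gene CA12 by 1.69 and the oestrogen receptor gene ESR1 by 1.43 ± 0.14 (adjusted p = 0.000876). ESR1 averaged 7.44 ± 0.23 in 3D and 6.01 ± 0.15 in 2D (SD). NAT1 (0.69), NRIP1 (0.47) and GATA6 (0.42) also rose and the T-box gene TBX3 fell by 0.79, all named after their values were seen. GATA3, a luminal factor that often acts with FOXA1, gave 0.09 (adjusted p = 0.78). GATA6 lost its call without any single array (adjusted p up to 0.134), and NRIP1 and TBX3 did not pass when any array but 3D replicate 1 was left out (adjusted p up to 0.137), NRIP1 also when its probe sets were averaged (0.29, adjusted p = 0.0963) and GATA6 after a repeated quantile normalization (adjusted p = 0.0513), while GREB1, PGR, CA12, ESR1 and NAT1 kept theirs. Without 3D replicate 1, 6 rose and 1 fell.

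Of 8 listed ETS factors other than SPDEF, 7 were measured, 2 rose, 1 fell and 4 did not pass (median -0.13). The epithelium-specific factor genes EHF and ELF5 rose by 2.06 ± 0.14 and 1.44 ± 0.20 (SE, n = 3; adjusted p = 0.000221 and 0.00396, limma). EHF averaged 9.41 ± 0.23 in 3D and 7.34 ± 0.14 in 2D (SD), with all 3D arrays above all 2D arrays. ETS1, expressed widely in mesenchymal and lymphoid cells, fell by 1.50 to 6.87 ± 0.11 in 3D, against 8.37 ± 0.12 in 2D. The more broadly expressed relatives ELF1, ELF2, ELF4 and ETS2 gave changes of -0.23 to 0.15 and did not pass.

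**Figure D4:**
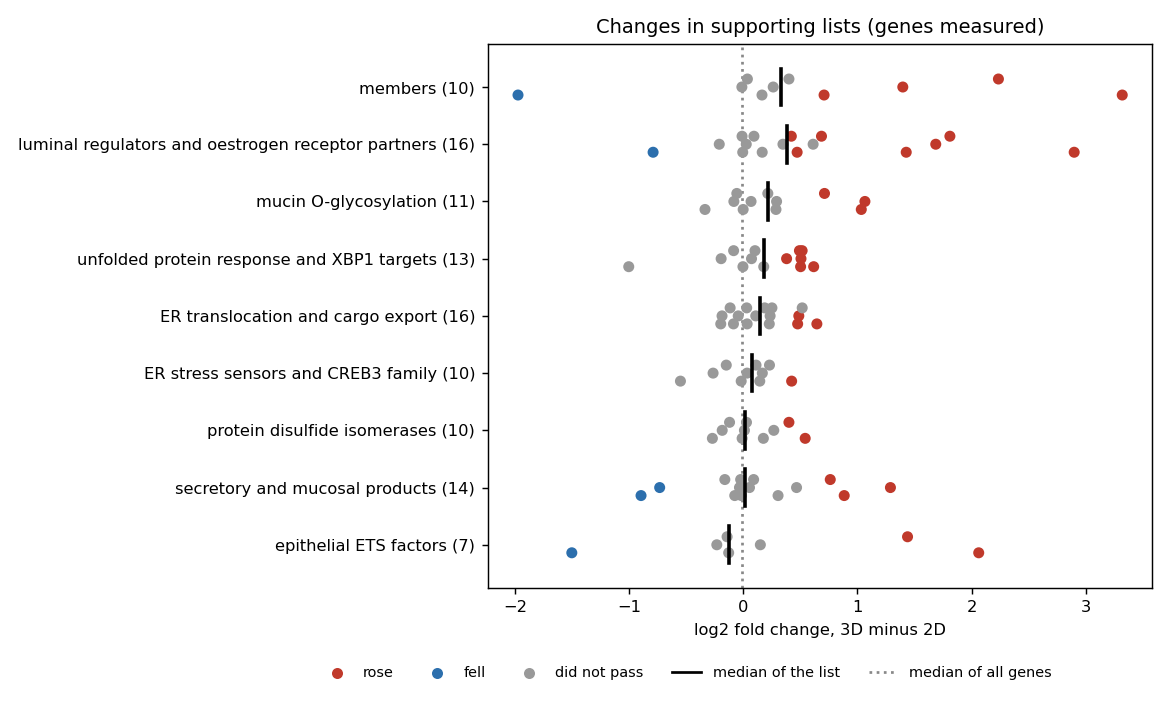
Each point is the log2 fold change (3D minus 2D, horizontal axis) of 1 measured gene of a list, coloured by whether it rose, fell or did not pass, with the list's median as a black line, the median of all genes (-0.01) as a dotted line and the number of measured genes in brackets. The luminal list has a median of 0.38, near that of the members (0.33), and the ETS list spreads from -1.50 for ETS1 to 2.06 for EHF.

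Markers of other cell types were read beside these groups, and against the 5.23% of all genes that rose and the 4.77% that fell. Of 9 fixed goblet cell markers 4 were measured, FCGBP, ZG16, ATOH1 and CLCA1, and 0 passed (limma, with 0 at an unadjusted p under 0.05). The list mean per array ran from 3.96 to 4.21 in the 3D arrays and from 3.83 to 4.01 in the 2D arrays, with CLCA1 below the lower quartile in all arrays. Of 6 ciliated cell markers 4 were measured and 2 rose, CAPS by 1.78 and TPPP3 by 1.22, whereas the master regulator gene FOXJ1 gave -0.20 (adjusted p = 0.541), with list means of 6.62 to 6.73 in 3D and 5.86 to 5.97 in 2D. Among 3 measured of 7 leukocyte markers, LYZ rose by 1.83, CD68 rose by 0.68 and CD14 gave -0.41 without passing, and the rise of LYZ was 1.06 as the mean of its probe sets (list means 5.89 to 6.40 in 3D and 5.35 to 5.49 in 2D). Among 3 measured of 7 fibroblast markers LUM rose by 4.40, THY1 gave -0.01 without passing and DCN stayed below the lower quartile in all arrays (list means 6.08 to 6.17 in 3D and 4.55 to 4.67 in 2D). Among 4 measured of 6 endothelial markers PECAM1 rose by 1.27, while KDR (-0.11), VWF (-0.04) and CLDN5 (-0.02) did not pass. The endothelial list had a median of -0.03 (list means 4.70 to 4.93 in 3D and 4.50 to 4.60 in 2D). The part of these markers in the changes of the members was not tested.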

How the data were processed

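Total RNA of 6 SKOV3 samples was labelled from 100 ng for 1 array each, per the labels' protocols. The deposited table holds the authors' log2 values of 53617 probe sets, made with RMA per the submitters' processing notes. Software version, probe grouping and filters: not given in the sources used here. Their range (0.30 to 13.87) gave the log2 scale. The annotation is that of a Human Gene ST array and the labels name a 3′ IVT kit, which was left unresolved. It gave 16098 probe sets 1 symbol, 0 several and 37519 none, all 16098 identifiers were in RefSeq (GRCh38.p14), and each of 14884 genes was represented by its brightest probe set on average. Groups were compared with limma 3.58.1 in R 4.3.3 (two-sided, group alone, Benjamini-Hochberg over all genes, threshold 0.05), tested on simulated data. Members and lists were chosen with earlier results of these data known. The genes named are all members, up to 4 called genes per list and the 5 profiles nearest to AGR2, with other genes given for context. Alternatives were other normalizations, leaving out dim genes, other probe set choices, another variance model, the replicate number as a block and leaving out each array. The number of arrays limits the precision.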

Additional observations from a re-analysis of the deposited data

How the results depend on the processing

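Of the members, AGR2, SPDEF and CREB3L1 kept their direction and their call in every alternative run, and AGR3 in every one that tested it. FOXA1 lost its call under the settings given with it and with the replicate number as a block (adjusted p = 0.0971, limma). The other 5 members passed in no alternative, and without single arrays the change of TFF3 ran from -0.173 to 0.0733, above 0 when 2D replicate 2 (0.0733), 2D replicate 3 (0.0633) or 3D replicate 2 (0.00546) was dropped. The count of changed members was 4 or 5 throughout. The replicate block gave 760 changed genes, 433 higher and 327 lower, in place of 1488, 778 and 710. The replicate numbers share no origin in the labels, the deviations of equally numbered arrays correlated at -0.28, -0.06 and -0.18, and 0 of 6 arrays correlated best with their own number. Under the block the risers numbered 1 on the unfolded protein response list, 1 on the translocation list, 0 on the disulfide isomerase and stress sensor lists, 2 each on the O-glycosylation list (without GALNT12), the secretory products list (without WFDC2) and the ETS list, and 5 on the luminal list. The falls of LCN2, CLU and TBX3 were lost, and that of ETS1 was kept. Leaving out single arrays gave 775 to 1899 changed genes, 420 to 1096 higher and 349 to 803 lower. Of 54 genes followed singly, 34 kept direction and call in every alternative. AGR3 in 2D and AGR2 in 2D replicate 1 lie at low signal, which limits how well their folds are known.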
